A study of Caenorhabditis elegans with 2 samples.

Results

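The cytosolic ribosomal protein genes of Caenorhabditis elegans were examined in an anti-GFP chromatin immunoprecipitation sequencing (ChIP-seq) experiment on tagged SDZ-38. The members are the protein-coding genes that the RefSeq annotation of build WBcel235 names rpl- or rps- followed by a digit, 78 of 19971 nuclear protein-coding genes. Of these, 48 are named for the large subunit and 30 for the small subunit. The members were chosen by name, without use of the ChIP signal. They are thus not the full set of ribosomal protein genes. The rule leaves out rpsa-1, fau-1 and rsl-24D1, which the Ensembl annotation names rps-0, rps-30 and rpl-24.2. These count here among the other protein-coding genes. RefSeq names and product descriptions differ for a few of them: it describes the product of rps-27A as ubiquitin-like protein 1 and that of rpl-42 as a NAM-associated domain-containing protein.

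The 2 biological replicates formed 1 group: whole young adult hermaphrodites of the transgenic strain OP543, taken 64 hours after they were synchronized as L1 larvae starved from bleaching. In this strain SDZ-38 carries GFP-FLAG at its C-terminus, and the promoter that drives it is not stated in the labels. Chromatin was sonicated and, per the sample description, precipitated with an anti-GFP antibody, although the antibody field names sdz-38. Libraries from untagged worms are not analysed here, so whether a region marks SDZ-38 itself was not tested. Each gene was scored by the deposited regions whose summit, the position of highest signal in a region, lay within 1000 bp of its annotated 5′ end, and a gene with such a region is called marked. The lists hold 17743 regions in replicate 1, 12648 in replicate 2 and 1242 in a pooled list made from both, with 102 in the optimal list that survived the authors' reproducibility procedure. The replicate and pooled lists are lenient: they were deposited as peaks together with background. The depth behind them is unknown, and exact Clopper-Pearson 95% intervals below cover counting error over genes only.

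Ribosomal proteins build the large and the small subunit of the ribosome around its RNAs, and the genes for them are among the most strongly transcribed in growing animals. Their mRNAs must be made in balanced amounts, and in the worm many are joined at their 5′ ends to a short spliced leader RNA. Introns of ribosomal protein genes also carry snoRNA genes in many animals. snoRNAs guide chemical modification of ribosomal RNA. The spliced leader bears on what the annotated 5′ end is, since a leader-joined mRNA begins at a splice acceptor and not where transcription began.

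Examples of such 5′ ends follow. Given below, on the strand of each gene and in build WBcel235 from RefSeq, are 40 bases before and 10 bases after the annotated 5′ end of 9 of the 13 members that had a region in the pooled list. Those of rps-10, rps-26, rpl-31 and rpl-23A.2 are not shown. The capitals mark the last 6 bases before the 5′ end.
rps-2, chrIV:7926382-7926431, minus strand: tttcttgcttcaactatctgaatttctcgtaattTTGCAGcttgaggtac
rps-12, chrIII:5679258-5679307, plus strand: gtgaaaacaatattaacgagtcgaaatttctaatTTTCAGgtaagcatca
rps-16, chrV:15000532-15000581, minus strand: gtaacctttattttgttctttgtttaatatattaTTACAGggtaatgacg
rps-25, chrIV:5947596-5947645, minus strand: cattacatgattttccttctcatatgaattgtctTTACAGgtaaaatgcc
rpl-3, chrIII:3867814-3867863, plus strand: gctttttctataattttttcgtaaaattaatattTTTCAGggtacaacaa
rpl-15, chrIV:654567-654616, minus strand: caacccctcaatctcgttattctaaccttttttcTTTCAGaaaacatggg
rpl-22, chrII:5055576-5055625, plus strand: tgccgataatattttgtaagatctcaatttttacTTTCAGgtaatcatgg
rpl-35, chrIII:7855094-7855143, plus strand: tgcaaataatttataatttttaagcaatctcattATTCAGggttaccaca
rpl-38, chrV:15512139-15512188, plus strand: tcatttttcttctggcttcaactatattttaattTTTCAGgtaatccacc
The word TTTCAG, a form of the worm splice acceptor, or a near variant ending in CAG stood in front of each of these 9 starts. Over all members, TTTCAG made up the last 6 bases before the 5′ end in 43 of 78 genes (55.1%), against 13.3% of other protein-coding genes and 13.4% of all 19971. Distances to the 5′ end below are therefore distances to an annotated mRNA start, and for such genes the start of transcription lies at an unknown distance upstream.

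In each list a larger share of ribosomal protein genes than of other protein-coding genes had a region near the 5′ end. In replicate 1, 50 of 78 members had one (64.1%, interval 52.4% to 74.7%), against 31.5% of the 19893 other genes. In replicate 2, 41 of 78 did (52.6%, interval 40.9% to 64.0%), against 23.8%. The shares of members were thus 2.04 times and 2.21 times those of other genes, and the gap between members and other genes was larger than the gap between the replicates in either set. In the pooled list 13 members had a region (16.7%, interval 9.18% to 26.8%), against 2.93% of other genes, a ratio of 5.69. Both replicates marked 29 members (37.2%, interval 26.5% to 48.9%), against 11.8% of other genes, and at least 1 replicate marked 62 (79.5%), against 43.4%. Only 1 member, rps-26, had a summit of the optimal list, against 0.201% of other genes. The single group allows no test of a condition, and no test of the difference between these shares was made.

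**Figure D1:**
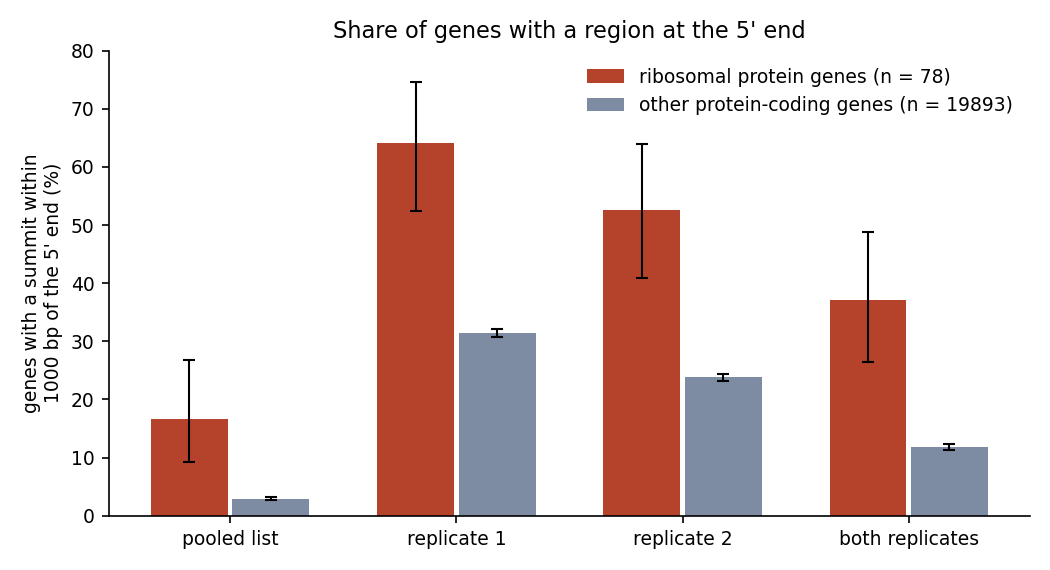
Bars give the percentage of genes with a summit within 1000 bp of the 5′ end, for ribosomal protein genes and other protein-coding genes, in the pooled list, in each replicate and in both replicates together. Error bars are exact 95% Clopper-Pearson intervals over genes. Members stand at 64.1% and other genes at 31.5% in replicate 1.

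Summits near members were densest from 500 bp before to 1500 bp after the 5′ end, a span longer than most members, and thinned out further downstream. In the 500 bp before the 5′ end there were 21.8 summits per 100 members in replicate 1 and 23.1 in replicate 2, against 9.32 and 7.12 per 100 other genes. From 500 to 1000 bp after it there were 34.6 and 17.9 per 100 members, against 9.48 and 6.87. Beyond 2000 bp downstream the members were nearer to other genes, with 8.97 in each replicate from 2000 to 2500 bp, against 9.28 and 6.81. Upstream the counts were uneven, with 17.9 summits per 100 members in replicate 1 and 14.1 in replicate 2 from 3000 to 2500 bp before the 5′ end, against 8.65 and 6.14. The replicates also differed in shape: the highest bins lay from 500 to 1500 bp downstream in replicate 1 and within 500 bp of either side in replicate 2.

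**Figure D2:**
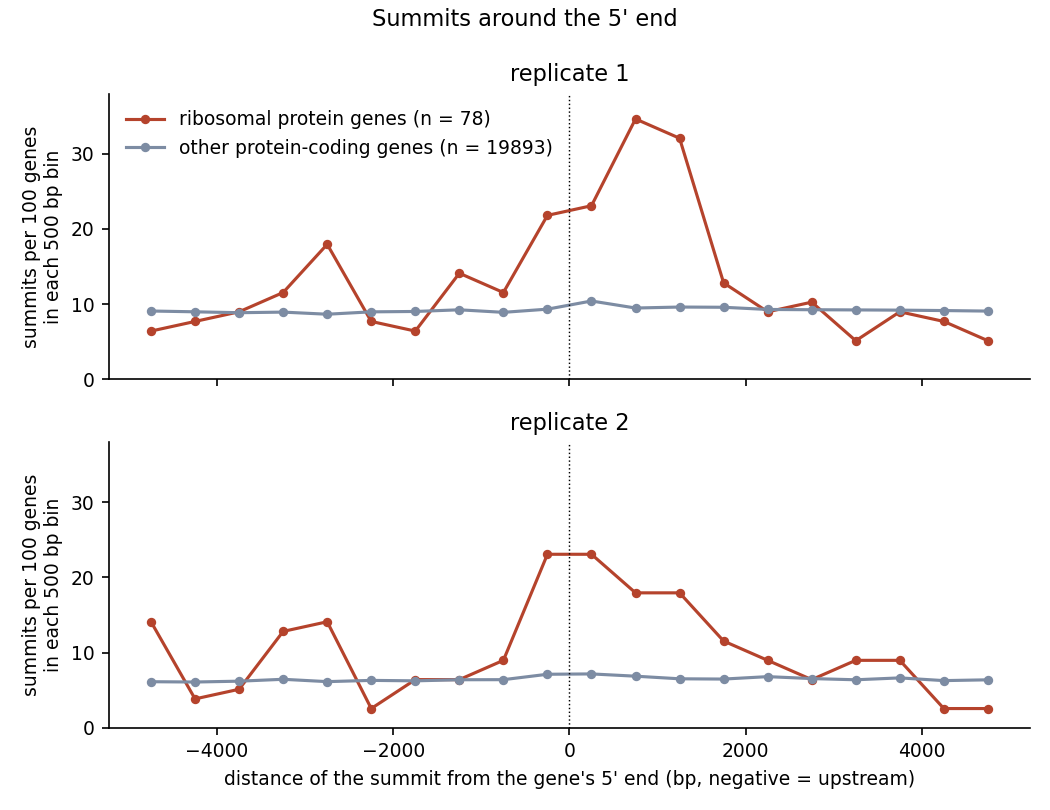
Summits per 100 genes in bins of 500 bp (vertical axis) against the distance of the summit from the annotated 5′ end (horizontal axis, negative upstream), for ribosomal protein genes and other protein-coding genes in each replicate. The members stand above the other genes from 500 bp upstream to 1500 bp downstream in both panels, reaching 34.6 in replicate 1 and 23.1 in replicate 2.

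Because these genes are short, a window at the 5′ end reaches most or all of the gene. The median length was 748 bp for members, with a range of 276 to 1734 bp, against 2015 bp for other genes. Windows at the 3′ end were marked at least as often: 57 members in replicate 1 (73.1%, against 33.7% of other genes), 46 in replicate 2 (59.0%, against 25.4%) and 15 in the pooled list (19.2%, against 3.15%). Of the 71 pairs of a member and a region in replicate 1, 20 had the summit in an exon of the member, 8 in its intron, 15 in another gene and 28 between genes. In replicate 2 the 57 pairs split into 16, 7, 12 and 22. The strongest region of a member lay downstream of the 5′ end in 33 of 50 cases in replicate 1 and 22 of 41 in replicate 2, and the median offset was 287 and 139 bp downstream, against 41.5 and 15 bp for other genes. The regions were thus not confined to the upstream side.

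The neighbourhood of these genes is crowded. Another protein-coding 5′ end lay within 1000 bp of 53 of 78 members (67.9%), against 22.9% of other genes, and a region then counts for each gene it is near. Of the distinct regions near members, 46 of 71 in replicate 1 and 32 of 55 in replicate 2 had a member as the nearest 5′ end. Among genes with no other 5′ end within 1000 bp, 14 of 25 members were marked in replicate 1, against 31.1%, and 11 of 25 in replicate 2 (44.0%, against 23.1%). In the pooled list 4 of 25 were (16.0%, against 2.57%). Both replicates marked 6 of 25 (24.0%, interval 9.36% to 45.1%), and the 11.4% of other genes lies inside that interval. The intervals were also wide in replicate 1 (34.9% to 75.6%) and replicate 2 (24.4% to 65.1%). The higher share of members was thus also present away from other starts, but it rests on 25 members.

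Marked members also ranked higher within each list than marked other genes, by an amount that depended on how regions were counted. Rank within a list is given here as a percentage of the list, 0 being the strongest. Over marked members the strongest region had a median rank of 29.8% (replicate 1) and 30.3% (replicate 2), whereas over marked other genes these medians were 45.5% and 44.3%. A marked member had on average 1.42 and 1.39 regions in its window, against 1.21 and 1.16, and a gene with more regions has more chances of a strong one. With each region counted once, the median rank near members was 33.9% (replicate 1) and 44.5% (replicate 2), and that of regions near other genes alone was 49.9% and 48.2%. In replicate 2 the regions near members thus lay close in rank to those near other genes. The 1000 strongest regions of replicate 1 marked 12 members (15.4%, against 2.21% of other genes), and those of replicate 2 marked 8 (10.3%, against 2.32%). The members in both sets were rps-2, rps-10 and rps-26.

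By mean rank over both replicates the 3 strongest members were the small subunit genes rps-26, rps-10 and rps-2, although rpl-18A ranked above rps-26 in replicate 1. Of the small subunit genes, in replicate 1, 20 of 30 were marked, in replicate 2, 18 of 30, and in the pooled list, 6 of 30. rps-26 (WBGene00004495, chromosome I, 14759930 to 14760626), whose product eS26 lies near the mRNA exit of the small subunit, had a signal value of 38.9 at rank 84 in replicate 1, 39.3 at rank 54 in replicate 2 and 77.9 at rank 47 in the pooled list. The pooled summit lay 433 bp upstream of rps-26, 24 bp from the 5′ end of the neighbouring gene tmem-107 and 85 bp from the snoRNA gene F39B2.14, so the region belongs to rps-26 by distance alone. The strongest summit of replicate 1, 575 bp upstream, lay inside both tmem-107 and F39B2.14. That of replicate 2, 432 bp upstream, lay 86 bp from F39B2.14. rps-10 (WBGene00004479, chromosome I, 4583873 to 4584505), which encodes eS10, had signal values of 39.2 in replicate 1 (rank 80), 27.5 in replicate 2 (rank 252) and 58.6 in the pooled list (rank 130). The strongest of its summits lay 907 and 754 bp downstream of the 5′ end in the 2 replicates, past the end of the gene and inside tmem-39. For both genes a strong region was present in each replicate, yet the 5′ end of another gene lay closer to it.

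rps-2 (WBGene00004471, chromosome IV, 7925298 to 7926391), which encodes uS5 beside the mRNA entry of the small subunit, was the best ranked member whose own 5′ end was nearest to the region in both replicates. Its summit lay 260 bp upstream in replicate 1 and 246 bp upstream in replicate 2, with signal values of 31.1 (rank 283) and 25.6 (rank 387). In the pooled list its region covered 7926423 to 7926878, had a signal value of 57.6 and ranked 143. The nearest short RNA gene, F20D12.10, lay 21361 bp from that summit. rps-16 (chromosome V, 15000018 to 15000541), which encodes uS9, had signal values of 23.2 in replicate 1 and 27.0 in replicate 2, with summits 366 and 528 bp downstream, and 48.7 in the pooled list. The summit of replicate 2 lay inside the neighbour T01C3.11. rps-12 (chromosome III, 5679298 to 5680187), which encodes eS12, had 27.8 in replicate 1, 20.4 in replicate 2 and 48.0 in the pooled list. Its strongest summit lay in its own exon in replicate 1, 681 bp downstream, and 159 bp upstream in replicate 2. A weaker region of replicate 2 lay 712 bp downstream, so rps-12 was marked at the same place in both replicates but with different strength. rps-25, which encodes eS25, was in the pooled list at 39.9 with a signal value of 19.5 in replicate 2 and no region in replicate 1.

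Of the 48 large subunit genes, 30 were marked in replicate 1 (62.5%) and 23 in replicate 2 (47.9%). The pooled list marked 7 (14.6%, interval 6.07% to 27.8%). Against these stood 31.5%, 23.8% and 2.93% of other genes, in that order. The difference between the subunits was not tested. rpl-3 (WBGene00004414, chromosome III, 3867854 to 3869587), which encodes uL3 near the site of peptide bond formation, had its summit 199 bp upstream in replicate 1 and 200 bp upstream in replicate 2. The signal value was 28.2 in replicate 2 (rank 206), 16.4 in replicate 1 (rank 8986) and 52.2 in the pooled list (rank 230). The position repeated within 1 bp while the rank did not. rpl-15 (chromosome IV, 653480 to 654576), which encodes eL15, had signal values of 30.9 in replicate 1 and 21.1 in replicate 2 with summits 307 and 344 bp upstream, and 50.3 in the pooled list. rpl-35 (chromosome III, 7855134 to 7855646), which encodes uL29 at the exit of the peptide tunnel, had 31.9 and 17.4 with summits 437 and 347 bp downstream, inside its own exon, and 51.2 in the pooled list. rpl-22 had 18.6 and 17.0 with summits 354 and 325 bp upstream, but the neighbour ify-1 lay nearer. In replicate 2 rpl-35 and rpl-22 sat at ranks 3833 and 4230, at 30.3% and 33.4% of the list, near the median of marked members.

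The pooled list held 3 more genes of the large subunit, each with its summit downstream of the 5′ end. rpl-38, which encodes eL38, had signal values of 25.9 in replicate 1 and 14.6 in replicate 2, and its summits lay 916 and 903 bp downstream inside the neighbour lgc-31. rpl-31, which encodes eL31, had 25.7 and 15.0 with summits 635 and 779 bp downstream. rpl-23A.2 had 18.3 and 19.5, and both summits lay in its intron, 194 and 184 bp downstream. rpl-18A, which encodes eL20, ranked 81 in replicate 1 with a signal value of 39.1, the highest rank of a large subunit gene, but that summit lay 978 bp downstream and nearer to cyc-2.1. Its strongest region in replicate 2, with 21.9 at rank 1099, lay 265 bp upstream, so the replicates did not place the strongest region of rpl-18A at the same place. rpl-36A completed the 10 members with the best mean rank over both replicates, with signal values of 18.5 at 24 bp downstream in replicate 1 and 21.2 at 776 bp upstream in replicate 2. Its regions too lay apart in the replicates.

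The pooled summits upstream of rps-2 and rpl-15 lay between genes and are shown as examples of regions with their own gene's 5′ end nearest. The summit base with 50 bases on either side is printed below on the strand of the member, with the base at the summit in capitals. Other windows around summits are not shown, and nothing about their base composition is drawn from these examples.
rps-2, chrIV:7926601-7926701, minus strand: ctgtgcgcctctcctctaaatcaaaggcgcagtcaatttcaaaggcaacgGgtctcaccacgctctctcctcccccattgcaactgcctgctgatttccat
rpl-15, chrIV:654869-654969, minus strand: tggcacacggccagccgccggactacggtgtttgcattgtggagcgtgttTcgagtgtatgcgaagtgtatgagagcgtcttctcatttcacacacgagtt
In the window from 250 bases before to 50 bases after the 5′ end, the median GC content was 33.0% for members and 34.3% for other genes. The word TATAAA was found on either strand of that window in 28.2% of members, against 37.9% of other genes and of all promoters. GAGAGA was found in 21.8%, against 21.7% of other genes and of all promoters. TTTCAG directly before the 5′ end occurred in 14 of the 29 members marked in both replicates (48.3%) and in 10 of the 16 marked in neither (62.5%). TATAAA occurred in 34.5% of the members marked in both and 12.5% of those marked in neither, and GAGAGA in 24.1% and 18.8%. With 2 of 16 genes behind the 12.5%, these shares are descriptions only, and a missing word says only that these letters were not in the window.

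**Figure D3:**
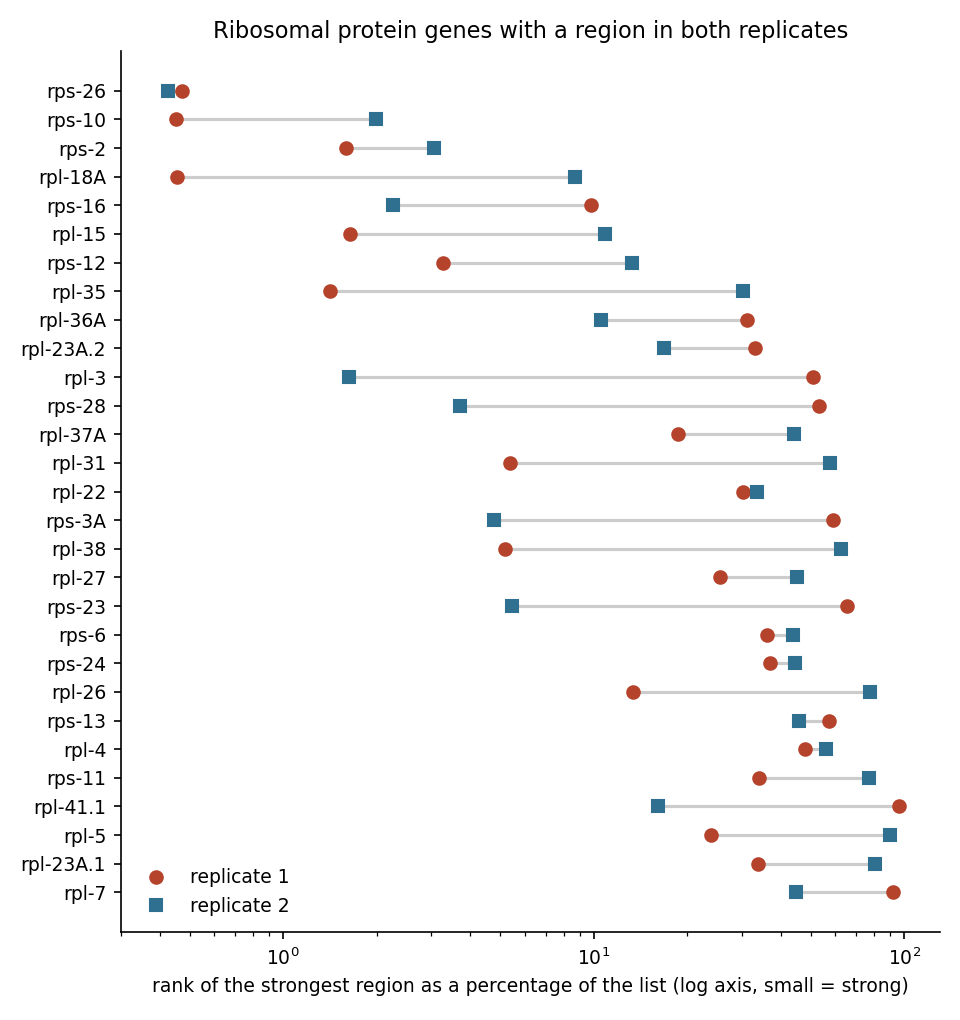
Rank of the strongest region within 1000 bp of the 5′ end, as a percentage of the list on a log axis, for the 29 ribosomal protein genes with a region in both replicates, ordered by their mean rank. Circles are replicate 1 and squares replicate 2; rps-26, rps-10 and rps-2 lie at the strong end in both, and rpl-3 lies at 50.6% in replicate 1 and 1.63% in replicate 2.

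Between replicates the closest summits of a member often lay near each other, while the ranks of its strongest regions were only weakly related. The 2 measures have no common scale and can rest on different regions of a gene. Of the 29 members marked in both, 20 (69.0%) had summits of the 2 replicates within 100 bp of each other. The median gap between the closest summits was 37 bp. Other genes marked in both had such a pair in 49.1% of cases with a median gap of 103 bp. Marked members had more regions per window than marked other genes, which gives more chances of a close pair. The replicate lists share 1 control alignment. The gap was 0 bp for a region downstream of rps-28, 1 bp for rpl-3, 2 bp for rps-13, which encodes uS15, and 3 bp for rpl-7, which encodes uL30. Spearman's rho of the ranks of the strongest regions, which need not be at the same place, was 0.163 over these 29 members. Over the 2351 other genes it was 0.211, as a description without a test. Only 7 members had their strongest region in the strongest 25% of both lists (8.97% of all members, against 2.23% of other genes). Replicate 1 alone marked 21 of 78 members, against 3909 of 19893 other genes. Replicate 2 alone marked 12 members, against 2382 other genes.

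Members marked in replicate 1 alone included strong ones. rpl-32 had a signal value of 30.1 at rank 348, in its own exon. rpl-10L, which encodes uL16, had 26.1 at rank 853, and rpl-37.1 had 25.8 at rank 920. Each of these 3 had no summit within 1000 bp in replicate 2. In replicate 2 alone the best ranked were rpl-41.2 with 19.6 at rank 2036, rps-25 with 19.5 at rank 2135 and rpl-12, which encodes uL11 at the base of the ribosomal stalk, with 19.1 at rank 2342. The best regions of replicate 2 alone thus stood lower in their list than those of replicate 1 alone. The 16 members marked in neither replicate were rpl-6, rpl-8, rpl-13A, rpl-18, rpl-21, rpl-23, rpl-27A, rpl-34, rpl-35A, rpl-36, rpl-37.2, rpl-42, rps-5, rps-15A, rps-18 and rps-27. They made up 20.5% of the members, against 56.6% of other genes marked in neither.

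Genes with a snoRNA gene were common among the members, and the share of marked genes was also higher in members without one than in other genes without one. A snoRNA gene lay inside 15 members and within 1000 bp of 3 more, 18 of 78 in all (23.1%, against 1.80% of other genes). Of these 18, 12 were marked in replicate 1 (66.7%, against 45.5% of other genes with a snoRNA gene) and 12 in replicate 2 (66.7%, against 38.3%). Of the 60 members without one, 38 were marked in replicate 1 (63.3%, against 31.2% of other genes without one) and 29 in replicate 2 (48.3%, against 23.5%). In the pooled list 9 of these 60 were marked (15.0%, against 2.78%). The ratios of members to other genes without a snoRNA gene, 2.03 in replicate 1 and 2.05 in replicate 2, were close to those over all genes.

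**Figure D4:**
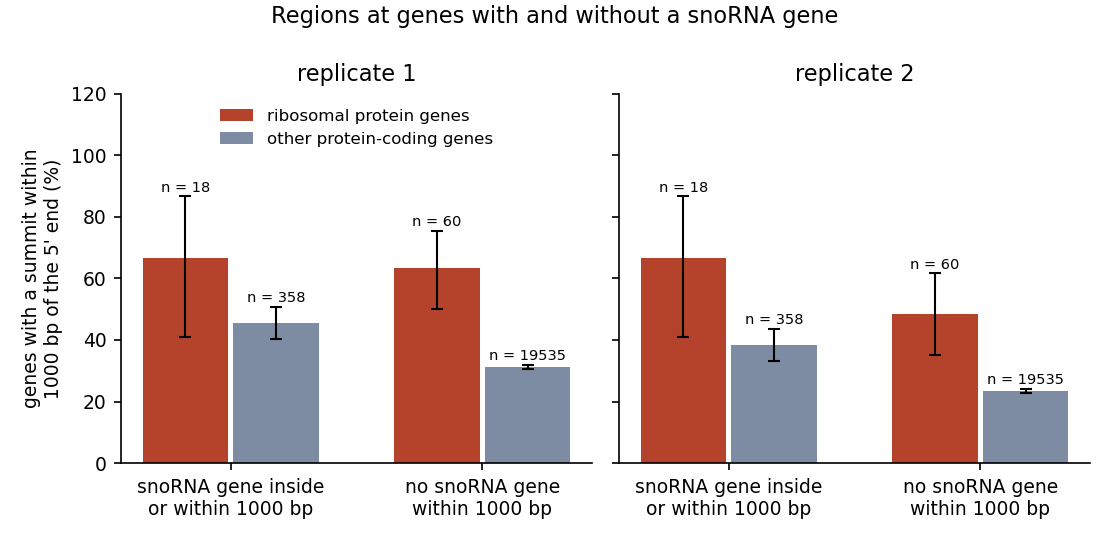
Percentage of genes with a summit within 1000 bp of the 5′ end in each replicate, split by whether a snoRNA gene lies inside the gene or within 1000 bp of it; error bars are exact 95% Clopper-Pearson intervals. Without a snoRNA gene, members reach 63.3% and 48.3%, against 31.2% and 23.5% of other genes.

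Most of the regions near members had no snoRNA gene within 250 bp of the summit. The same share for regions near other genes is not given here, so no comparison with them is drawn. The summit was within 250 bp of a short RNA gene in 6 of 71 regions in replicate 1, 9 of 55 in replicate 2 and 2 of 13 in the pooled list, and the short RNA was a snoRNA in each. In rpl-7 both summits, at signal values of 13.7 and 15.9, lay in an intron 46 and 49 bp from the snoRNA gene F53G12.12 (chromosome I, 111292 to 111425). In rps-23, which encodes uS12 of the decoding site, the replicate 2 summit of signal value 23.5 fell inside F28D1.13 (chromosome IV, 12390526 to 12390655), whereas the replicate 1 summit of 15.3 lay 125 bp upstream of the gene. In rps-12 the summits in its exon lay 104 and 135 bp from F54E7.11. In rpl-4, which encodes uL4, the nearest summits lay 206 and 49 bp from B0041.9. Other hosts were marked away from their snoRNA gene, such as rpl-15 at 522 and 559 bp from K11H12.13. In rps-13 the summits lay 11 and 9 bp upstream of the 5′ end and 460 and 458 bp from C16A3.11, with signal values of 15.9 and 15.8.

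Most of the remaining hosts were marked in 1 replicate alone. rpl-7A had a signal value of 24.5 at 10 bp upstream in replicate 1 alone, and rpl-26, which encodes uL24, had 22.0 and 13.8 with summits 615 and 625 bp downstream. rps-27A (21.6, at 850 bp downstream) and rps-29 (18.8, at 996 bp downstream) were marked in replicate 1 alone. rps-4 had 18.1 in replicate 2 alone, 109 bp from the snoRNA gene Y43B11AR.7. rpl-24 had 14.8 in replicate 2 alone, from a region that also counts for rps-10. The hosts rpl-6, rpl-8 and rpl-27A had no region, although rpl-6 holds 3 snoRNA genes, R151.11, R151.12 and R151.13. Holding a snoRNA gene thus went with a region at some members and not at others.

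The gene pairs with numbered copies were alike in some values and different in others. rpl-23A.2 was in the pooled list and rpl-23A.1 on X was not, but both were marked in both replicates. Their signal values were 18.3 and 18.2 in replicate 1, and 19.5 and 13.7 in replicate 2. The summits of rpl-23A.1 lay 154 and 139 bp downstream. rpl-11.2 on X, which like rpl-11.1 encodes a copy of uL5, had 22.1 in replicate 1 alone, 711 bp upstream. rpl-11.1 had 15.9 in replicate 2 alone, 503 bp upstream. rpl-37.2 had no region, in contrast to rpl-37.1. The adjoining copies rpl-41.1 and rpl-41.2 shared 1 region of replicate 2, between them, and rpl-41.1 also had 13.5 in replicate 1 at rank 17083. How reads were placed between similar copies is not stated, so values of these pairs are uncertain.

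The members are spread over all chromosomes, with 23 on chromosome I and 2 on X. In replicate 1 the share of marked members was above that of other genes on each of the 6. In replicate 2 it was too, but on chromosome III the gap was small, with 5 of 18 members marked (27.8%, against 23.3%). In replicate 1 that chromosome had 11 of 18 (61.1%, against 29.2%). On chromosome II the replicates also differed, with 9 and 5 of 11 members marked, against 29.4% and 23.2% of other genes there. On chromosome I 15 of 23 members were marked in replicate 1 (65.2%, against 27.6%) and 16 in replicate 2 (69.6%, against 21.8%). On X the shares rest on 2 members, with 2 marked in replicate 1 and 1 in replicate 2, against 43.4% and 32.6%. Neither of them was marked in the pooled list, against 5.39% of other genes on X.

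Genes just outside the window show how much the distance matters. The summit nearest to rps-9 lay 963 bp downstream in replicate 1 with a signal value of 14.1, and that nearest to rps-4 lay 1017 bp downstream with 26.5 and was not counted. In replicate 2 the nearest summit of rps-4 at 919 bp was counted, and that of rpl-39 at 1008 bp with 12.9 was not. rps-6, whose product eS6 is phosphorylated by S6 kinase, had an optimal and pooled summit of signal value 73.8 at 1124 bp downstream of its 5′ end. It lies outside the window and was not counted.

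Related gene lists were read in the same way, beside the share over all other protein-coding genes of 31.5% in replicate 1 and 23.8% in replicate 2. Of 5 ribosomal or ribosome-associated genes that the name rule leaves out, 4 were marked in replicate 1 and 3 in replicate 2. They were rack-1, a scaffold on the small subunit, ubq-2, a ubiquitin fusion, and the stalk protein gene rplp-1 in both, and rplp-2.2 in replicate 1, while the stalk gene rplp-0 was not marked. rack-1 had signal values of 19.9 and 23.1 with summits 950 and 951 bp downstream and was in the pooled list. Of the 6 elongation factor genes, eef-1A.1, eef-1A.2, eef-1B.1 and eef-1G were marked in both replicates, eef-1B.2 and eef-2 in neither. Initiation factor genes were marked in 15 of 31 cases in replicate 1 (48.4%) and 10 in replicate 2 (32.3%), both above those shares. In the pooled list 1 of the 31 was marked (3.23%), close to the 2.93% of other genes. The shares of the ribosome-associated and elongation factor genes were also above those of other genes in each replicate, but rest on 5 and 6 genes. The differences of these 3 sets from other genes were not tested. The 71 mitochondrial ribosomal protein genes, whose products work in the organelle's own ribosome, were marked in 22 cases in replicate 1 (31.0%) and 23 in replicate 2 (32.4%), and 3 were in the pooled list (4.23%). Against other protein-coding genes at 31.5%, 23.8% and 2.93%, the mitochondrial set was thus close to the background in replicate 1 and above it in replicate 2. Its pooled share rests on 3 genes. Both replicates marked 9 of the 71 (12.7%), close to the 11.8% of other genes. The differences of the mitochondrial set from the background and from the cytosolic genes were not tested. Of the box C/D snoRNP protein genes fib-1, nol-56 and nol-58, which act with snoRNAs, nol-56 alone was marked, in replicate 2.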

How the data were processed

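The deposited files are region lists in narrowPeak layout for SDZ-38 GFP ChIP, given in genome builds ce10 and ce11. Per the deposited file notes, each replicate list was made from that replicate's alignment and 1 control alignment, the pooled list from both replicates and the control, and the optimal list from these 3. The authors' signal value is a score with no stated scale, and it was ranked within each list only, mitochondrial regions included. Which aligner and peak caller were run is not given in the sources used here. Depth is unknown. The lists of build ce10 were not used, since no annotation of that build was used here and no coordinate was converted.

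All ce11 region ends lay within the WBcel235 chromosome lengths. Summits (region start plus offset, 1-based) were joined to RefSeq 5′ ends within 1000 bp, with Python 3.11.15, pandas 2.3.3, numpy 2.4.6 and scipy 1.17.1. A snoRNA gene overlapping a gene's span made it a host, and one within 1000 bp made it adjoining. Names that RefSeq no longer uses (rla-0, rla-1, rla-2, ubl-1) were matched through WormBase gene IDs in the Ensembl annotation. The join was checked on simulated lists, where 20 of 20 planted summits and 20 of 20 planted snoRNA marks were found. A planted adjoining snoRNA gene counted as found in either class, and none was planted beyond 1000 bp. The check thus did not test the split of hosts from adjoining genes, or false marks.

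The members, lists and words were chosen with earlier results of these data known. Genes named are those in the optimal or pooled list, the 10 with the best mean rank, marked snoRNA genes' hosts and neighbours, the 3 best of each replicate alone, numbered copies and those nearest the 1000 bp limit. The other named genes (rps-28, rpl-8, rpl-6, rpl-27A and the unmarked members) were added after their values were seen. Alternatives are in the closing section. Some sequence windows are not reported here.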

Additional observations from a re-analysis of the deposited data

How the results depend on the processing

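In each of the 40 alternative counts of marked genes the share of members was higher than that of other genes, by 1.62 to 8.05 times, and 27 of the counts stayed within 1.5 times of the value reported. The rest follow as numbers of members. With 250 bp in place of 1000 bp, 2 were marked in the pooled list, 16 in replicate 1 and 13 in replicate 2. These were 2.56%, 20.5% and 16.7% of members, against 0.804%, 9.57% and 7.10% of other genes. With regions that overlap the 5′ end, the numbers were 2, 16 and 12 (2.56%, 20.5% and 15.4%, against 0.754%, 9.22% and 6.62%). With 2000 bp, 20 were marked in the pooled list (25.6%, against 5.25%) and 49 in both replicates (62.8%, against 25.7%). With the strongest 1000 regions, 12 were marked in replicate 1, 8 in replicate 2 and 3 in both (15.4%, 10.3% and 3.85%, against 2.21%, 2.32% and 0.478%). With each summit given to the nearest 5′ end alone, replicate 2 marked 27 (34.6%, against 20.8% of other genes). With Ensembl gene names, an alternative chosen after seeing the data, the numbers were 13, 50 and 41, against 2.93%, 31.5% and 23.8% of other genes. Without replicate 1, replicate 2's regions as many as the pooled list holds marked 9 (11.5%, against 2.91%). Without replicate 2 those of replicate 1 marked 12 (15.4%, against 2.75%). The count in both replicates, 29, became 41 without replicate 1 and 50 without replicate 2, by construction, since 1 list marks more genes.

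The median rank of members, 30.1% as a mean over both replicates, was 36.9% with 500 bp, 18.7% with 2000 bp, 39.4% with the nearest 5′ end alone and 32.4% for genes without a snoRNA gene, against 46.8%, 41.8%, 45.8% and 45.3% for other genes. It was 30.3% without replicate 1 and 29.8% without replicate 2. The number of members with a snoRNA gene was 15 with 500 bp (19.2%, against 1.38%) and 16 on the same strand alone (20.5%, against 1.24%). The cause of these shifts was not tested. No paired analysis was possible because the 2 replicates form 1 group. Unknown depth, lenient lists and the crowded surroundings of these genes limit what a marked gene means.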
